A study of Mus musculus with 9 samples.

Results

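The 8 keratin genes Krt5, Krt6a, Krt6b, Krt14, Krt15, Krt16, Krt17 and Krt42 encode intermediate filament proteins of basal, hyperproliferative and stratified epithelium. They were taken from the gene count table by symbol, as 8 of its 24421 genes, and all 8 had enough counts to be tested. Their transcripts were followed in HC11, a clonal mouse mammary epithelial line that makes milk proteins under lactogenic hormones. Polyadenylated RNA of 9 libraries was read, with 3 libraries for each of 3 groups, all from cells at passage 30 that had been grown with EGF and had reached confluency in 3 days. D day1 and D day6 cells received differentiation medium for 1 or 6 days, with 5 µg/mL prolactin, 1 µM hydrocortisone, 5 µg/mL insulin and 2% fetal bovine serum, changed every 2 days. R day1 cells were kept for 1 day in resting medium, with the same insulin and serum and without prolactin or hydrocortisone. The protocol places a day in resting medium before the differentiation medium, so D cells also differ from R day1 in days after confluency. No resting group of a later day was analysed here. No label says that the replicates were separate cultures, so the p-values reflect variation among these libraries, and that variation may be technical.

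Keratin filaments are built from pairs of 1 type I and 1 type II protein, so a cell needs both classes. Basal cells of stratified and glandular epithelia typically pair Krt5 (type II) with Krt14 (type I), and Krt15 is a further type I keratin of basal cells, well known from the stem cell niche of the hair follicle. Krt6a and Krt6b (type II) and Krt16 and Krt17 (type I) are the stress keratins, raised in wounded and hyperproliferative epidermis. In the mammary gland Krt5 and Krt14 mark the outer, basal layer, and the simple-epithelial Krt8 and Krt18 the inner, luminal layer.

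The libraries held 59621562 to 73571270 gene counts. The fewest counts of any of the 8 keratins in a library were 141, for Krt42. Counting error was below the spread between libraries for the 8 keratins in each group, except for Krt42 in D day6 (7.79%, against a coefficient of variation of 5.57%) and Krt6b in R day1 (2.99%, against 2.36%). Levels are CPM, counts scaled to a common library size by edgeR's trimmed mean of M values, and levels of different genes are compared only as CPM per kilobase of exon. D day1 replicate 2 stood apart from the other D day1 libraries: chi-square values of counts per degree of freedom were 607 and 588 for its pairs, against 31.3 for replicates 1 and 3. Rn45s, the 45S ribosomal RNA precursor, held 5.27% of counts there and 0.276% to 1.79% in each of the remaining 8 libraries. All 8 keratins were highest in that library within D day1, by 1.17 times (Krt6b) to 1.95 times (Krt14) the mean of the other D day1 libraries. Among tested genes of the same exon lengths (1511 to 2258 bases), 71.7% were also highest there, against 44.7% of all tested genes. What sets that library apart was not tested. Results of the 8 keratins whose call or direction changes without it are given both ways, and those of other genes only in part.

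After 1 day of differentiation medium, Krt15 was 94.7-fold higher than in R day1, Krt42, Krt6a and Krt6b had also risen, and Krt5 had fallen. After 6 days the other 7 keratins were lower than in R day1, by 2.12-fold (Krt42) to 22.8-fold (Krt16), and Krt15 alone was higher, by 78.1-fold. A gene was called when the adjusted p of edgeR's quasi-likelihood test was under 0.05. In D day1 against R day1, 4 of the 8 were called higher and 1 lower, where 15.4% of all 13866 tested genes were higher and 15.2% lower. Their median log2 fold change was 0.74, against 0.00 over all tested genes. In D day6 against R day1, 1 was called higher and 7 lower, where 24.3% of tested genes were higher and 26.2% lower, with medians of -2.08 for the 8 and 0.00 for all. In D day6 against D day1, 0 were higher and 7 lower, where 17.1% and 19.5% of tested genes were, with medians of -2.94 and -0.03. Libraries of the groups compared did not overlap for 5, 8 and 7 of the 8 keratins in these 3 comparisons, in that order, where 49.5%, 78.7% and 53.8% of tested genes did not overlap in either direction. D day1 and D day6 share the R day1 libraries as their reference, and the last comparison tests the difference between both changes.

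**Figure D1:**
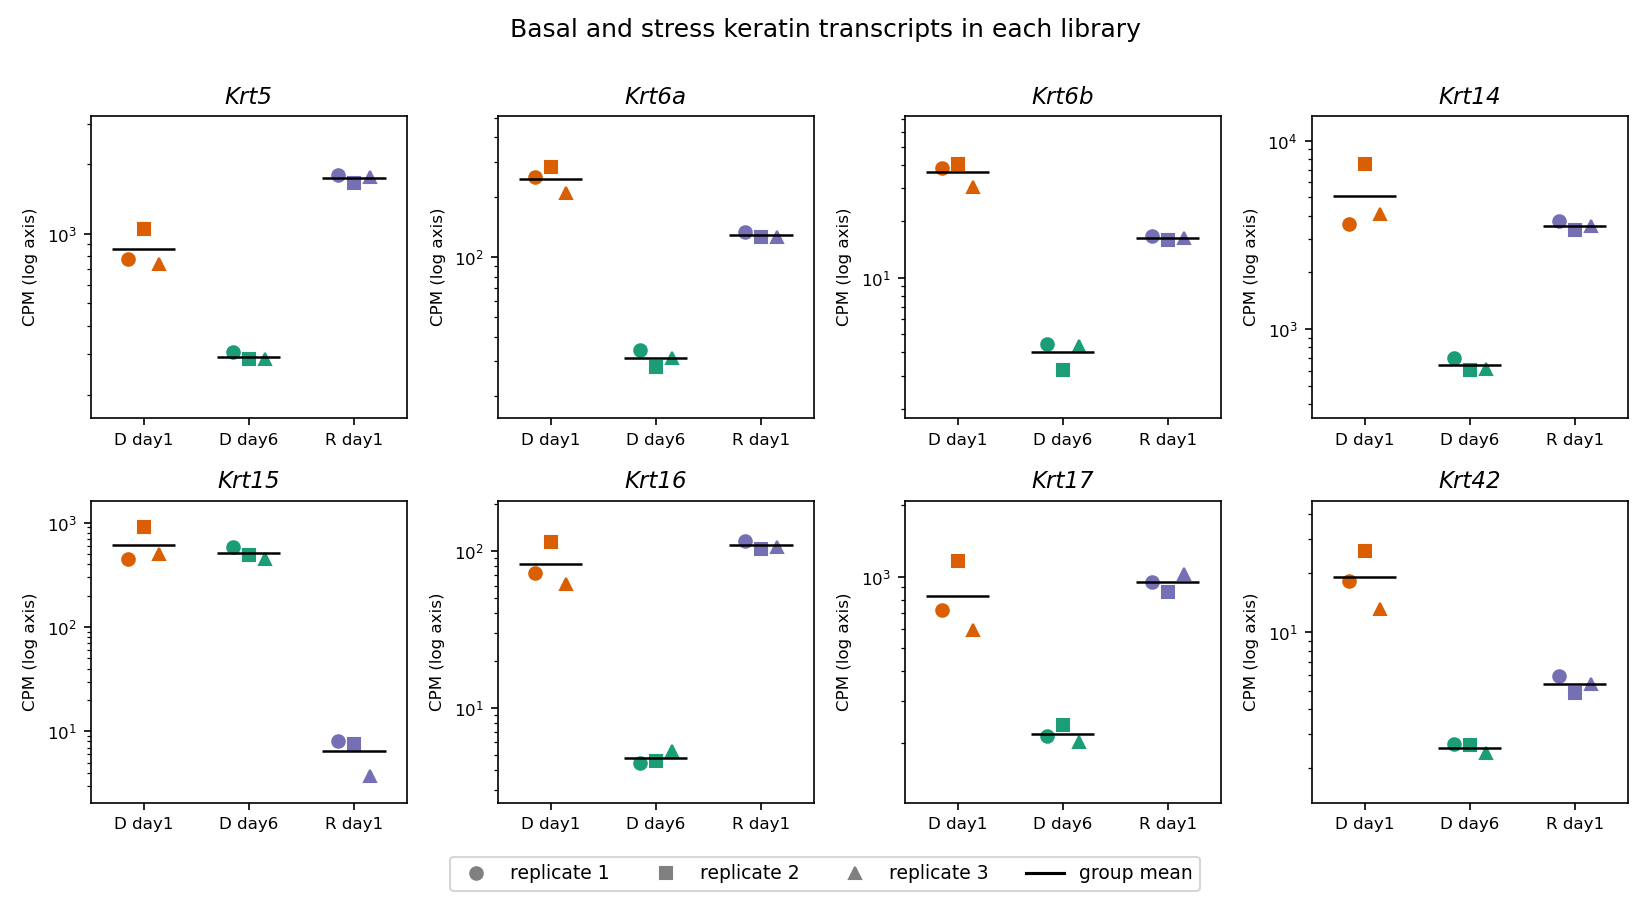
Level of each of the 8 keratin transcripts in each library, in CPM on a log axis that differs between panels, with marker shapes for replicates 1 to 3 and a black line at the group mean. Krt15 is high in both D groups and low in R day1, whereas the other 7 are lowest in D day6, and the square of D day1 replicate 2 is the highest D day1 point in every panel.

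Sequence upstream of the start is shown for Krt5 and Krt42, the only ones of the 8 with a RefSeq start close to the first counted base. Of the 8 genes, 3 matched the RefSeq promoter table (build GRCm38.p6). For Krt14 the start given there lies 1480 bases inside the gene as counted, so its sequence is not shown. For Krt5 and Krt42 the RefSeq start lies 14 and 80 bases upstream of the first counted base. The 250 bases before the start are printed 5′ to 3′, for the minus strand at chr15:101712906-101713155 (Krt5) and chr11:100269952-100270201 (Krt42), with matched motifs in capitals.
Krt5: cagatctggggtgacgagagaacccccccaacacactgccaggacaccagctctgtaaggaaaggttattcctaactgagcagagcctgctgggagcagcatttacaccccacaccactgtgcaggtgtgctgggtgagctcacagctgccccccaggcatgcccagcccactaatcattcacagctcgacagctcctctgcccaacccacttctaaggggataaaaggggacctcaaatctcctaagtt
Krt42: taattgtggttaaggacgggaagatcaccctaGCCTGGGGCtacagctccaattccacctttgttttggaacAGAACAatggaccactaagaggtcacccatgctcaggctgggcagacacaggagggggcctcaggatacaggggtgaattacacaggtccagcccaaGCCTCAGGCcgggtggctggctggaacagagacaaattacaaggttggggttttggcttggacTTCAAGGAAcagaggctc

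Motifs were searched on both strands. They were GCCNNNGGC for the AP-2 family, AGAACA for a glucocorticoid receptor half-site, TTCNNNGAA for the STAT family and TATAAA for the TATA box core. The Krt42 window held 2 AP-2 matches, 1 half-site match and 1 STAT match, none overlapping another, and no TATAAA. The Krt5 window held 0 matches to the 4 motifs. Over the same 250 bases of all 32851 promoters in the table, 13.7% held the AP-2 motif, 16.1% the half-site, 7.02% the STAT motif and 12.4% TATAAA. A match describes the letters only.

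Krt5, the main type II keratin of basal cells (chromosome 15, 101707070 to 101712891, minus strand, 9 exons), had 778, 1051 and 736 CPM in the D day1 libraries and 306, 286 and 286 CPM in D day6, against 1798, 1664 and 1763 CPM in R day1. The 3 groups did not overlap. Krt5 fell 2.04-fold in D day1 (log2 fold change -1.03, 95% interval -1.34 to -0.71, edgeR adjusted p = 0.000927) and 5.95-fold in D day6 (-2.57, interval -2.91 to -2.24, adjusted p = 2.2e-06), both against R day1. Between the D groups it fell a further 2.92-fold in D day6 (edgeR adjusted p = 7.25e-05).

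Krt14, the type I partner of Krt5 (chromosome 11, 100203162 to 100207510, minus strand, 8 exons), was the most abundant of the 8 per kilobase in every group. Its level per kilobase ranked 6th of the tested genes in D day1, 141st in D day6 and 11th in R day1. The libraries gave 3621, 7502 and 4067 CPM in D day1 and 704, 605 and 615 CPM in D day6, against 3722, 3341 and 3510 CPM in R day1. D day1 overlapped R day1, with D day1 replicate 2 far above the rest, and D day6 lay below both. The D day1 difference from R day1 was not called (log2 fold change 0.52, interval -0.05 to 1.09, edgeR adjusted p = 0.147), and without D day1 replicate 2 the value was 0.13 (0.232). Krt14 fell 5.49-fold in D day6 against R day1 (-2.46, interval -3.06 to -1.86, edgeR adjusted p = 7.54e-05) and 7.89-fold against D day1 (adjusted p = 6.96e-05), or 5.98-fold against D day1 without replicate 2. In bulk RNA, fewer cells that express a gene and less of its RNA per cell cannot be told apart, and this holds for every fall given here.

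Krt15 (chromosome 11, 100131759 to 100135949, minus strand, 8 exons) lies in the same type I cluster as Krt14. It had 33931, 51080 and 34738 counts in the D day1 libraries and 39643, 32282 and 26269 in D day6, against 534, 542 and 256 in R day1. As CPM these were 444, 900.1 and 498 in D day1 and 580, 493 and 445 in D day6, against 8.11, 7.61 and 3.71 in R day1. Every D library was far above every R day1 library, and within R day1 replicate 3 stood below replicates 1 and 2. The log2 fold change was 6.57 in D day1 (interval 5.61 to 7.53, 94.7-fold, edgeR adjusted p = 2.72e-05) and 6.29 in D day6 (interval 5.34 to 7.24, 78.1-fold, adjusted p = 4.8e-06), both over R day1. Among 13866 tested genes ordered by log2 fold change, Krt15 stood 2nd from the top in D day1 and 82nd in D day6.

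The rise of Krt15 was in place by 1 day and its level was not called different at 6 days. Krt15 averaged 506 ± 68.2 CPM in D day6 and 614 ± 249 CPM in D day1 (SD, n = 3 each), with a log2 fold change of -0.28 and a 95% interval of -1.03 to 0.47 (edgeR adjusted p = 0.527). Without D day1 replicate 2 the sign turned, to 0.11 (edgeR adjusted p = 0.665). Without each of the other 8 libraries in turn it stayed below 0, down to -0.47. Without D day1 replicate 2 the D day1 rise over R day1 was 72.8-fold.

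**Figure D2:**
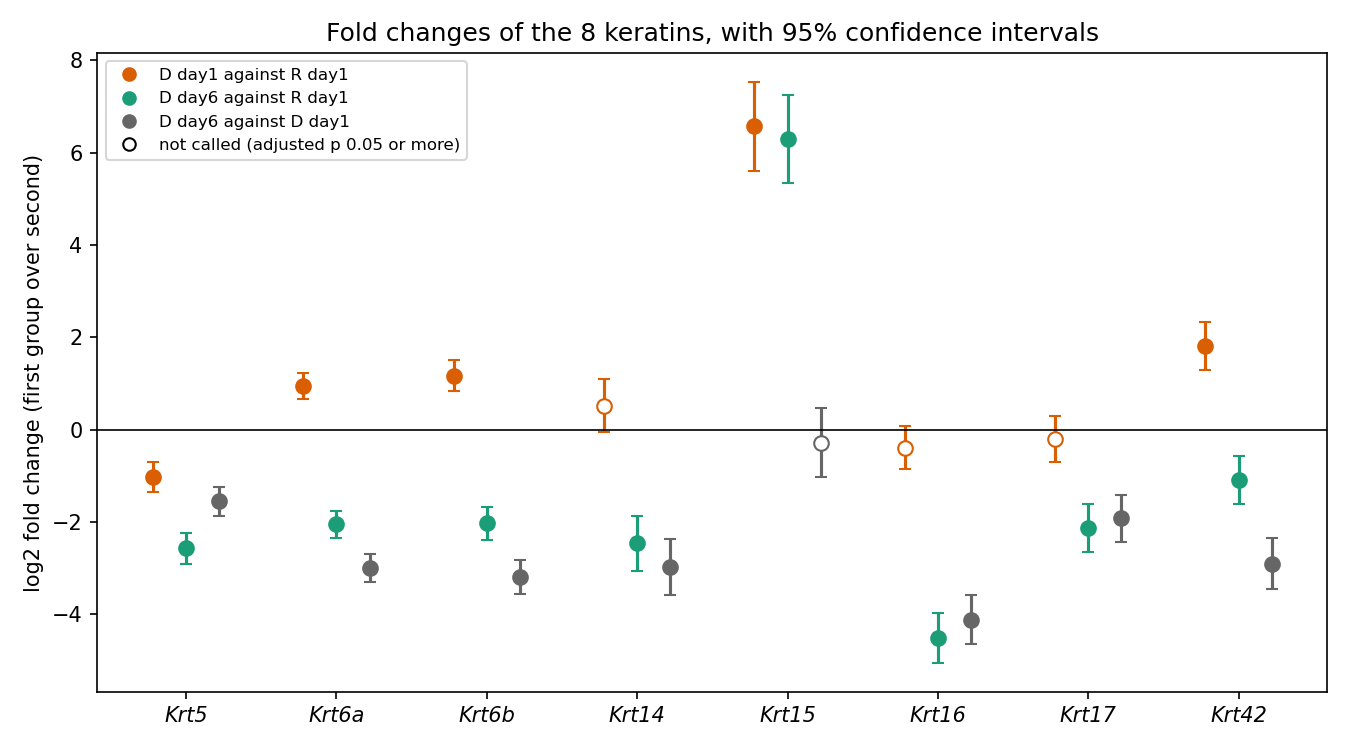
Log2 fold changes (first group over second, points) with 95% confidence intervals (bars) for the 8 keratins in the 3 comparisons, from edgeR's fit to all genes, with open points where the gene was not called. Krt15 lies above 6 in both comparisons with R day1 and near 0 between the D groups, and the other 7 lie below 0 in both comparisons of D day6.

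Krt6a and Krt6b, the injury-induced type II keratins, both rose after 1 day and had fallen below R day1 by 6 days. Krt6a (chromosome 15, 101689928 to 101694305, minus strand) had 251, 284 and 209.6 CPM in D day1 and 34.4, 28.0 and 31.1 CPM in D day6, against 133, 126 and 127 CPM in R day1. Krt6b (chromosome 15, 101676023 to 101680289, minus strand) had 38.2, 40.4 and 30.6 CPM in D day1 and 4.45, 3.21 and 4.32 CPM in D day6, against 16.6, 15.8 and 16.3 CPM in R day1. For both genes every D day1 library was above, and every D day6 library below, all R day1 libraries. Krt6a rose 1.93-fold in D day1 (log2 fold change 0.95, standard error 0.124, edgeR adjusted p = 8e-04) and Krt6b 2.24-fold (1.16, standard error 0.148, adjusted p = 7e-04). In D day6 they fell 4.13-fold and 4.07-fold below R day1, and 7.97-fold and 9.12-fold below D day1 (edgeR adjusted p from 2.7e-06 to 1.06e-05).

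The Krt6a and Krt6b values are uncertain, because their transcripts share sequence. Of the windows of 50 bases along the Krt6a transcript in GENCODE M21, 43.6% also occur in Krt6b, and 62.0% occur in some other gene's transcript. For Krt6b 44.5% occur in Krt6a. The read length, and how reads matching several places were counted, are not given in the sources used here, so reads of the pair may have been lost or assigned to either copy. Krt6a stood at 6.52, 6.97 and 6.79 times Krt6b per kilobase in D day1 and 7.66, 8.66 and 7.13 times in D day6, against 7.95, 7.90 and 7.69 times in R day1. Their profiles over the 9 libraries were the closest of any pair among the 8, with a root mean square difference of 0.122 on the log2 scale. For the other members the share of such windows found in another gene was 37.6% for Krt16, 14.4% for Krt14, 12.2% for Krt5, 3.99% for Krt17, 0.666% for Krt15 and 0.268% for Krt42. No exon of the 8 genes overlaps an exon of another gene in the count annotation.

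Krt16 and Krt17, the stress-associated type I keratins, were not called in D day1 and fell by D day6. Krt16 (chromosome 11, 100246091 to 100248902, minus strand) had 71.9, 114 and 61.9 CPM in D day1 and 4.45, 4.55 and 5.29 CPM in D day6, against 116, 104 and 106 CPM in R day1. D day1 replicates 1 and 3 lay below all R day1 libraries and replicate 2 among them, while the D day6 libraries were far below. Krt16 fell 22.8-fold in D day6 against R day1 (log2 fold change -4.51, interval -5.05 to -3.97, edgeR adjusted p = 1.54e-06), which placed it 64th from the bottom of the tested genes. Against D day1 it fell 17.4-fold (-4.12, edgeR adjusted p = 7.53e-06), or 14.1-fold without D day1 replicate 2.

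Krt17 (chromosome 11, 100256217 to 100260989, minus strand) was the second most abundant type I member in D day1 and R day1. It had 726, 1157 and 596 CPM in D day1 and 214, 238 and 201 CPM in D day6, against 952, 860.4 and 1025 CPM in R day1. Replicate 2 alone of the D day1 libraries exceeded R day1, and D day6 lay below both groups. Krt17 fell 4.34-fold in D day6 against R day1 (-2.12, interval -2.64 to -1.60, edgeR adjusted p = 7.82e-05) and 3.79-fold against D day1 (adjusted p = 0.000302). For D day1 against R day1 the log2 fold changes were -0.39 for Krt16 (interval -0.86 to 0.07, edgeR adjusted p = 0.177) and -0.20 for Krt17 (interval -0.69 to 0.30, 0.527). Without D day1 replicate 2 both were called lower, Krt16 at -0.70 (edgeR adjusted p = 4.4e-05) and Krt17 at -0.52 (0.00181), so that 3 of the 8 were lower in D day1, where 26.2% of all tested genes then were.

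Krt42, a type I keratin described in mouse nail epithelium (chromosome 11, 100262882 to 100269871, minus strand), had the lowest mean level per kilobase of the 8 in each group, though not in every library. It had 18.1, 26.1 and 13.1 CPM in D day1 and 2.65, 2.63 and 2.39 CPM in D day6, against 5.94, 4.88 and 5.42 CPM in R day1. The 3 groups did not overlap. Krt42 rose 3.52-fold in D day1 (log2 fold change 1.82, interval 1.30 to 2.33, edgeR adjusted p = 0.000663) and fell 2.12-fold in D day6 (-1.08, interval -1.61 to -0.56, adjusted p = 0.00412), both against R day1. It stood 7.46-fold lower in D day6 than in D day1 (edgeR adjusted p = 4.38e-05).

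The order of the 8 by level per kilobase differed between the groups. In D day1 the means were 3050 CPM per kilobase for Krt14, 547 for Krt17, 390.3 for Krt5, 357 for Krt15, 110 for Krt6a, 52.9 for Krt16, 16.3 for Krt6b and 12.3 for Krt42. The libraries of Krt17 and Krt5, of Krt5 and Krt15, and of Krt6b and Krt42 overlapped between libraries. Within each D day1 library, however, Krt17 exceeded Krt5 and Krt6b exceeded Krt42 in 3 of 3, and Krt5 exceeded Krt15 in 2 of 3. In D day6 they were 386 for Krt14, 294 for Krt15, 144 for Krt17, 134 for Krt5, 13.8 for Krt6a, 3.04 for Krt16, 1.78 for Krt6b and 1.65 for Krt42, and of neighbours in that order only Krt17 with Krt5 (Krt17 higher in 3 of 3 libraries) and Krt6b with Krt42 (Krt6b higher in 2 of 3) overlapped. In R day1 the order was Krt14 at 2123, Krt5 at 795, Krt17 at 626, Krt16 at 69.4, Krt6a at 57.0, Krt6b at 7.27, Krt15 at 3.77 and Krt42 at 3.50, where Krt15 and Krt42 overlapped (Krt15 higher in 2 of 3 libraries). Krt15 was thus among the 2 lowest of the 8 in R day1 and the second highest in D day6.

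Set against the other type I keratins of the group, Krt15 took a growing share. It made up 8.88% ± 0.215 of the summed counts per kilobase of the 5 type I members in D day1 and 35.4% ± 1.72 in D day6, against 0.134% ± 0.0508 in R day1 (SD, n = 3 each). The share of Krt14 was 75.6% ± 2.05 in D day1 and 46.6% ± 1.72 in D day6, against 75.1% ± 1.19 in R day1. Relative to Krt14, Krt15 stood at 11.8%, 11.6% and 11.8% in the D day1 libraries and 79.5%, 78.5% and 69.9% in D day6, against 0.21%, 0.22% and 0.102% in R day1. The ratio in D day1 replicate 2 matched that of replicates 1 and 3, although Krt15 was 1.91 times and Krt14 1.95 times the mean of those libraries there. Between D day6 and D day1 the levels of Krt14 and Krt17 fell and that of Krt15 was not called different. Shares describe these libraries and were not tested.

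**Figure D3:**
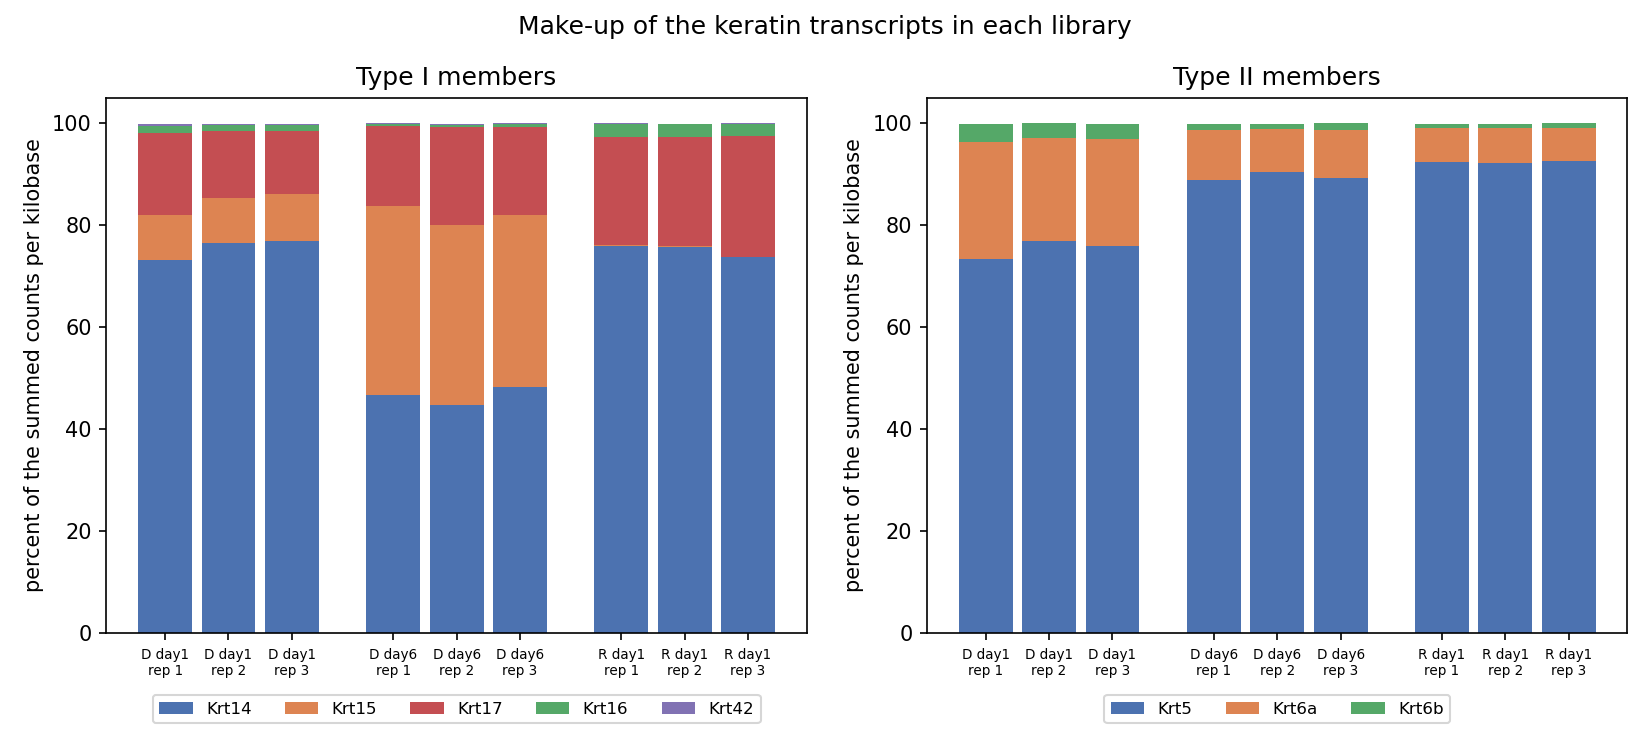
Stacked bars of the percent of summed counts per kilobase of exon taken by each type I member (left) and each type II member (right) in each of the 9 libraries. Krt15 fills 33.7% to 37.2% of the type I bar in D day6 and 8.66% to 9.09% in D day1, against 0.0753% to 0.167% in R day1, and Krt6a is widest on the right in D day1.

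Among the type II members the stress keratin Krt6a had its largest share in D day1. Krt6a took 21.4% ± 1.48 of the 3 type II members in D day1 and 9.23% ± 0.575 in D day6, against 6.64% ± 0.172 in R day1, and Krt5 took 75.4% ± 1.80, 89.6% ± 0.741 and 92.5% ± 0.181 in the same groups (SD, n = 3 each). The summed type I members stood at 6.16, 9.46 and 7.19 times the summed type II members per kilobase in D day1 and 5.78, 5.63 and 5.25 times in D day6, against 3.33, 3.23 and 3.30 times in R day1. Leaving Krt15 out of the type I sum gave 5.62, 8.62 and 6.54 in D day1 and 3.63, 3.65 and 3.48 in D day6, against 3.32, 3.22 and 3.30 in R day1. In D day6, then, most of the distance from R day1 in this ratio lay in Krt15, and in D day1 it did not. The ratio holds the 8 members only and is not that of all keratins in the cells. It leaves out the type II keratins Krt7 and Krt8 and the type I keratin Krt18, among others. In D day6 these averaged 422, 135 and 132 CPM, against 196, 137 and 68.5 CPM in R day1. Together the 8 genes took 0.618%, 1.05% and 0.629% of all counts in D day1 and 0.178%, 0.158% and 0.151% in D day6, against 0.707%, 0.643% and 0.688% in R day1.

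The profile of Krt15 over the 9 libraries was unlike that of the other 7. After centring each gene on its own mean log2 CPM, its root mean square difference from them was 3.10 (Krt42) to 4.51 (Krt16), while pairs among the other 7 differed by 0.122 to 1.43. Of 10187 other genes with a mean of at least 5 CPM, the nearest to Krt15 were Scrg1 (0.641), Ctgf (0.887), Omd (1.09), Atp1b1 (1.21) and Scnn1g (1.21). Scrg1 averaged 51.8 CPM in D day1 and 48.4 CPM in D day6, against 1.34 CPM in R day1. Atp1b1 shares exon bases with Nme7, so its counts are uncertain. Near to Krt14 were Cpne5 (0.226), Phyhd1 (0.244), Il34 (0.246) and Pdgfb (0.271), and the nearest to Krt17 were Sfn (0.125), Mgst2 (0.144), Zfp385a (0.18), Ndrg4 (0.186) and Crabp2 (0.193). These distances describe the libraries and carry no test.

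The authors' deposited table gave the same directions for the 8 keratins. In D day1 it held log2 fold changes of 6.52 for Krt15, 1.82 for Krt42, 1.18 for Krt6b, 0.97 for Krt6a and -1.01 for Krt5, with adjusted p-values from 1.5e-57 to 1.57e-06 in the authors' deposited table. Krt14, Krt16 and Krt17 had adjusted p-values of 0.193, 0.315 and 0.686 there, in the authors' deposited table. For D day6 the authors' deposited table gave 6.23 for Krt15 and -4.53 (Krt16) to -1.08 (Krt42) for the other 7.

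Of 44 other keratin genes in the count table, 10 had enough counts to be tested, and 6 of the remaining 34 had 0 counts in all 9 libraries. In D day1 against R day1, 4 rose (Krt7, Krt10, Krt13 and Krt23) and 1 fell (Krt79), where 15.4% of all tested genes rose and 15.2% fell. In D day6 against R day1, 4 rose (Krt7, Krt10, Krt18 and Krt23) and 2 fell (Krt78 and Krt79), where 24.3% and 26.2% did. The numbers that fell were near the shares of all tested genes. The D day1 call of Krt13 (log2 fold change 1.62, edgeR adjusted p = 0.015) did not hold without R day1 replicate 2 (0.0597) or 3 (0.0539). Krt7, a keratin of simple and ductal epithelium, had 323 ± 121 CPM in D day1 and 422 ± 26.5 CPM in D day6, against 196 ± 12.1 CPM in R day1 (SD, n = 3 each). It rose in D day6 (log2 fold change 1.11, edgeR adjusted p = 0.00281), and its D day1 call (0.73, 0.0359) was lost when any R day1 or D day6 library was left out (up to 0.11). Krt18, the luminal type I keratin, rose in D day6 to 132 ± 12.8 CPM, against 68.5 ± 8.65 CPM in R day1 (0.94, edgeR adjusted p = 0.00589). In D day1 it had 51.8 ± 17.6 CPM and was not called (-0.40, edgeR adjusted p = 0.184), but was called lower without D day1 replicate 2 (-0.72, 0.000221).

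Its usual partner Krt8 had 143 ± 39.4 CPM in D day1 and 135 ± 3.58 CPM in D day6, against 137 ± 7.89 CPM in R day1 (SD, n = 3 each), and was called in neither. Without D day1 replicate 2, Krt8 was called lower in D day1 (-0.18, edgeR adjusted p = 0.0189). Krt79, a type II keratin of the hair follicle canal in mice, fell in both D groups, to 22.7 ± 5.45 CPM in D day1 and 2.49 ± 0.634 CPM in D day6, against 52.7 ± 3.04 CPM in R day1 (log2 fold changes -1.22 and -4.40, edgeR adjusted p = 0.00246 and 1.54e-06). Krt10, a suprabasal keratin, rose in D day6 to 3.61 ± 0.374 CPM, against 1.62 ± 0.267 CPM in R day1 (edgeR adjusted p = 0.00305), and its D day1 call (0.74, 0.0416) was lost when any R day1 or D day6 library was left out (up to 0.137). Krt23, a type I keratin, stood at 0.551 ± 0.140 CPM in D day1 and 2.36 ± 0.0854 CPM in D day6, against 0.0778 ± 0.0466 CPM in R day1, where its 3 libraries held 16 counts in all, and rose in both (edgeR adjusted p = 0.000734 and 4.97e-06).

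**Figure D4:**
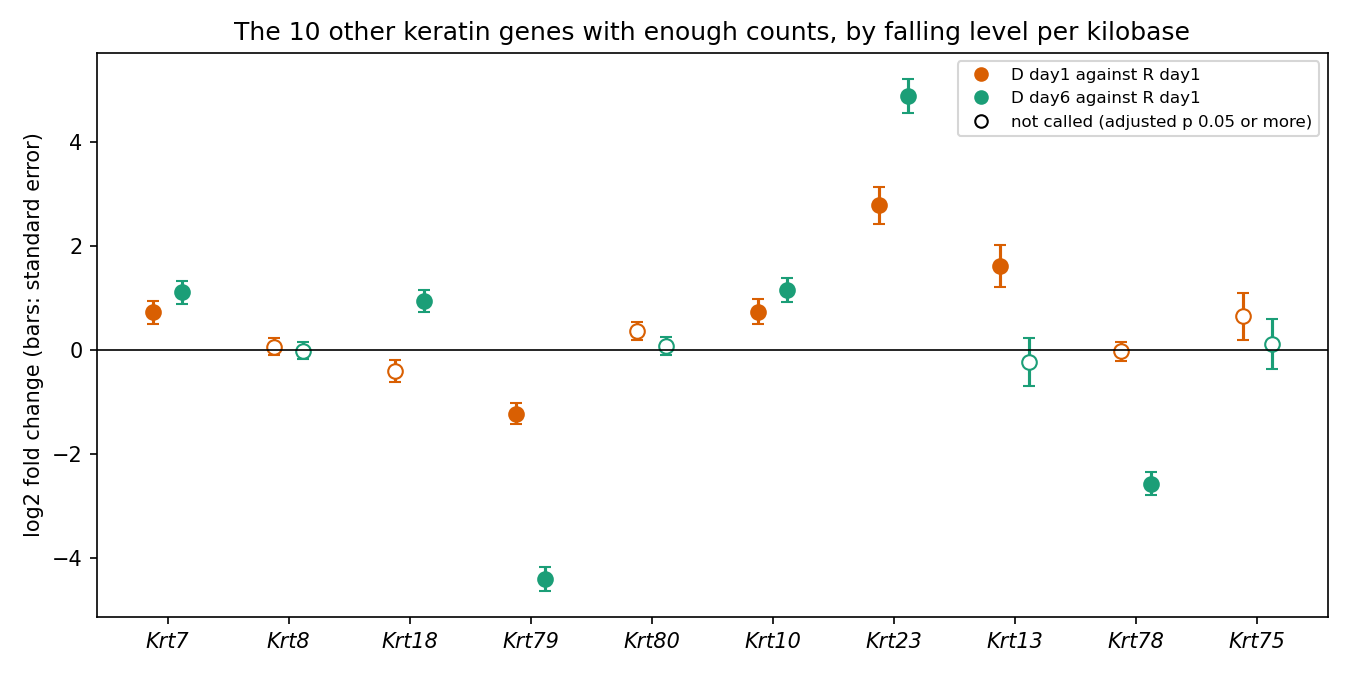
Log2 fold changes against R day1 (points, with standard errors as bars) of the 10 other tested keratin genes, ordered from the highest to the lowest level per kilobase, with open points where the gene was not called. Krt7 and Krt18 lie above 0 in D day6, Krt8 near 0 in both D groups, and Krt79 and Krt78 below 0 in D day6.

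Of the 6 simple-epithelial keratins in the lists, 4 were tested. There 2 rose and 0 fell in D day1, and 3 rose and 0 fell in D day6, both against R day1, with median log2 fold changes of 0.40 and 1.03, where 15.4% and 24.3% of all tested genes rose.

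Further lists hold genes that link keratin filaments to junctions, anchor basal cells or act in stratified epithelium. Their counts stand beside the shares of all tested genes called higher and lower, 15.4% and 15.2% in D day1 and 24.3% and 26.2% in D day6, both against R day1. Of 13 keratin linkers (desmosomal and hemidesmosomal plaque proteins and keratin-binding proteins), 2 rose and 4 fell in D day1 and 3 rose and 9 fell in D day6, both against R day1. Their median log2 fold changes were 0.01 and -0.71, and the number that rose in D day1 was near the share of all tested genes. Pkp1, the desmosomal plaque protein plakophilin 1, fell to 249 ± 14.1 CPM in D day6, against 993 ± 31.9 CPM in R day1 (SD, n = 3 each, log2 fold change -2.0, edgeR adjusted p = 8.55e-07). Sfn, the 14-3-3 protein sigma that binds keratins, fell to 20.7 ± 0.349 CPM in D day6, against 90.7 ± 0.764 CPM in R day1 (-2.13, edgeR adjusted p = 0.000134). Of 10 genes of basement membrane adhesion, 1 rose and 2 fell in D day1, and 2 rose and 5 fell in D day6, with medians of -0.20 and -0.29, and the D day1 counts were near the shares of all tested genes. Lama3, a chain of the laminin under basal epithelium, fell to 30.3 ± 1.87 CPM in D day6, against 174 ± 1.68 CPM in R day1 (SD, n = 3 each, log2 fold change -2.52, edgeR adjusted p = 3.7e-05).

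Of 17 transcription factors known to act on keratin genes or epithelial stratification, 1 rose and 5 fell in D day1, and 5 rose and 5 fell in D day6, with medians of -0.12 and 0.01, and the D day6 counts were near the shares of all tested genes. Trp63, which encodes the basal factor p63, fell to 126 ± 42.9 CPM in D day1 and 123 ± 4.28 CPM in D day6, against 237 ± 7.96 CPM in R day1 (SD, n = 3 each, log2 fold change -0.91 in D day1, edgeR adjusted p = 0.0154). That D day1 call did not hold when R day1 replicate 2 (0.051) or 3 (0.0519) was left out. In D day6 against R day1 the log2 fold change was -0.94 (edgeR adjusted p = 0.00704, up to 0.0299 over the alternatives). Between D day6 and D day1 Trp63 was not called (-0.04, edgeR adjusted p = 0.91), but was called lower in D day6 without D day1 replicate 2 (-0.29, 0.000611). The 2 factors with the largest called change in D day6, Ovol1 and Grhl3, both fell, and no values are given for the 5 that rose. Ovol1, a zinc finger factor of differentiating epidermis, fell to 4.57 ± 0.622 CPM in D day6, against 20.3 ± 2.03 CPM in R day1 (-2.15, edgeR adjusted p = 7.8e-06). Grhl3, a grainyhead-like factor of the epidermal barrier, fell to 0.670 ± 0.0763 CPM in D day6, against 2.17 ± 0.219 CPM in R day1 (-1.69, edgeR adjusted p = 8.18e-05).

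Of 23 suprabasal and cornified envelope genes, Flg was not matched in the count table and 14 were tested. In D day1 5 rose and 4 fell, and in D day6 2 rose and 7 fell, with medians of -0.24 and -1.43. Beside Krt79, given above, Sprr1b, a cornified envelope precursor, had 0.544 ± 0.127 CPM in D day1 and 0.142 ± 0.0608 CPM in D day6, against 2.14 ± 0.289 CPM in R day1 (SD, n = 3 each), and fell in both (edgeR adjusted p = 0.000775 and 1.31e-05). Of 12 genes of the hair follicle bulge, where Krt15 is a marker, 9 were tested. There 2 rose and 2 fell in D day1, and 3 rose and 3 fell in D day6, with medians of 0.15 and 0.01, all near the shares of all tested genes with all libraries. Without D day1 replicate 2, 6 of 10 bulge genes were called higher in D day1 and 2 lower, where 26.6% and 26.2% of all tested genes were. The 2 bulge genes with the largest called change in D day6, Nfatc1 and Dkk3, both fell, and no values are given for the 3 that rose. Nfatc1, a transcription factor of bulge stem cells, fell to 149 ± 22.3 CPM in D day1 and 47.3 ± 2.10 CPM in D day6, against 343 ± 27.0 CPM in R day1 (log2 fold changes -1.20 and -2.86, edgeR adjusted p = 0.000224 and 6.3e-07). Dkk3, a secreted Dickkopf family protein, had 13 and 16 counts in all in D day1 and D day6, against 62 in R day1, and was called lower in both (edgeR adjusted p = 0.0191 and 0.0205). The D day1 call did not hold without R day1 replicate 3 (0.0752) or D day1 replicate 1 (0.0618) or 3 (0.0544), and the D day6 call not without R day1 replicate 3 (0.076) or D day6 replicate 1 (0.0705).

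Without D day1 replicate 2, 26.6% of all tested genes were called higher and 26.2% lower in D day1, and 38.0% and 37.7% in D day6, both against R day1. In that fit the members called higher and lower in D day1 against R day1 numbered 3 and 5 for keratin linkers, 4 and 4 for basement membrane adhesion and 4 and 7 for the transcription factors. They numbered 7 and 4 of 15 for suprabasal genes, 6 and 2 of 10 for bulge genes, 2 and 2 of 5 for the simple-epithelial keratins and 6 and 3 of 12 for the other keratins. In D day6 against R day1 they then numbered 3 and 9 for keratin linkers, 4 and 6 for adhesion, 8 and 6 for the transcription factors, 3 and 7 for suprabasal genes, 4 and 4 for bulge genes, 3 and 0 for the simple-epithelial keratins and 5 and 2 for the other keratins. Where counts of a list are said above to be near the shares of all tested genes, this refers to the fit to all libraries. Sox9 is in the lists of transcription factors and bulge genes, Itga6 and Col17a1 are in those of adhesion and bulge genes, and several keratins are in more than 1 list.

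Markers of other cell types were read beside these results. The 5 basal markers are Krt5, Krt14, Krt15 and Krt17, themselves among the 8 keratins, and Trp63, and their summed level was 5722 to 10686 CPM in D day1 and 1673 to 1922 CPM in D day6, against 6117 to 6709 CPM in R day1. Without D day1 replicate 2 the D day1 sums were 5722 and 6045 CPM, below all R day1 libraries. The 5 luminal markers, of which Krt19 was too low to test, summed to 1429 to 1512 CPM in D day1 and 1939 to 2164 CPM in D day6, against 1584 to 1649.5 CPM in R day1. Most of that sum was Epcam and Cdh1, at 879.8 and 899.8 CPM in D day6, against 634 and 784 CPM in R day1. With all libraries Epcam was called higher in D day6 (log2 fold change 0.47, edgeR adjusted p = 0.00898) and Cdh1 was not (0.20, 0.266). In that fit 2 of the 4 tested luminal markers were called higher in D day6 against R day1 and 0 lower. Without D day1 replicate 2 these numbers were 3 of 5 and 0, where 38.0% and 37.7% of all tested genes were called higher and lower. The 7 fibroblast markers summed to 43.5 to 79.2 CPM in D day1 (66.5 and 79.2 CPM without replicate 2) and 153 to 267 CPM in D day6, against 77.5 to 90.1 CPM in R day1. In D day6 that sum was mostly Dcn, at 134 ± 44.5 CPM, with Col3a1 at 38.1 ± 9.4 CPM and Lum at 10.2 ± 2.55 CPM (SD, n = 3 each). In R day1 these 3 stood at 0.279, 1.77 and 0.0374 CPM. In D day6 against R day1 these 3 were called higher and the other 4 lower, where 24.3% and 26.2% of all tested genes were. Of those 4, Col1a1 stood at 0.280 ± 0.0975 CPM in D day6, against 18.3 ± 2.13 CPM in R day1. The 5 myoepithelial markers summed to 4.62 to 10.9 CPM in D day1 (9.67 and 10.9 CPM without replicate 2) and 9.76 to 13.5 CPM in D day6, against 5.91 to 6.61 CPM in R day1, most of it Mylk, which was not called with all libraries. Among them Acta2, smooth muscle actin, rose in both D groups, to 1.13 ± 0.318 CPM in D day1 and 1.95 ± 0.631 CPM in D day6, against 0.117 ± 0.0387 CPM in R day1 (SD, n = 3 each, log2 fold changes 3.26 and 4.05, edgeR adjusted p = 0.000562 and 3.87e-05). Myh11, another of the 5, went the other way. It held 60 and 51 counts in all in D day1 and D day6, against 92 in R day1. It was not called in D day1 (-0.61, edgeR adjusted p = 0.0572) and was called lower in D day6 (-0.75, 0.0166). With all libraries 1 of the 4 tested myoepithelial markers was called higher in D day1 and 0 lower, and 1 and 1 in D day6, both against R day1. Without D day1 replicate 2 these numbers were 3 and 0 in D day1, where 26.6% and 26.2% of all tested genes were called. In D day6 they were 2 and 1, where 38.0% and 37.7% were.

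Of the 5 immune markers only Cd68 was tested, and the sum was 11.9 to 19.9 CPM in D day1 and 3.93 to 5.46 CPM in D day6, against 24.6 to 27.1 CPM in R day1, with Ptprc at 6 and 3 counts in all, against 5. The 3 endothelial markers summed to 9.15 to 11.1 CPM in D day1 and 2.11 to 2.55 CPM in D day6, against 11.5 to 13.4 CPM in R day1, nearly all of it Pecam1, with Cdh5 at 10 and 13 counts, against 15. Only Pecam1 was tested, and it was called lower in D day6 than in R day1 (log2 fold change -2.55, edgeR adjusted p = 1.4e-06). In D day1 it was not called (-0.37, edgeR adjusted p = 0.0512), but was called lower without D day1 replicate 2. The 3 adipocyte markers summed to 26.4 to 37.8 CPM in D day1 and 4.69 to 12.4 CPM in D day6, against 25.3 to 29.6 CPM in R day1, nearly all of it Fabp4, with Adipoq at 0 and 4 counts, against 0. The part of these marker changes in the keratin results was not tested.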

How the data were processed

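The authors deposited gene counts from featureCounts, per the labels: whole numbers, not normalized. The submitters' processing notes name build mm10 and, with no role or order, TopHat2 2.0.6 and Bowtie2 2.0.2, besides Trimmomatic 0.32 and SAMtools 0.1.18. Strand setting, read length and the handling of multiply mapped reads are not given in the sources used here. The authors' deposited DESeq2 tables (version 1.16.1 in those notes) hold for each gene, per the file headers, a log2 fold change and its standard error, a test score and a raw and adjusted p-value. They were used only where named. Columns of per-sample values that match no sample label (21) were not used.

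For the tests, edgeR 4.0.16 (R 4.3.3, limma 3.58.1) was used: filterByExpr left 13866 of 24421 genes, libraries were scaled by the trimmed mean of M values (TMM), and one quasi-likelihood model with group as the only term took in the 9 libraries together. P-values were adjusted by Benjamini-Hochberg over all tested genes and called under 0.05. CPM are on the TMM scale. The procedure was tested on simulated data. Intervals are 95%. Alternatives were DESeq2 1.42.0, other scalings, no filter, each comparison's 6 libraries alone, a replicate block and each library left out.

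The members and lists were chosen with earlier results of these data known. Besides the 8 members, the text names for each list the 2 called genes with the largest change in D day6 against R day1, the 4 called other keratins with the highest level, and the 5 genes nearest to Krt15, Krt14 and Krt17. Some of these genes are not reported here. Trp63, Krt8, Krt13, Krt78 and the single markers given were chosen after their values were seen.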

Additional observations from a re-analysis of the deposited data

Results flagged for a closer look

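Between D day6 and D day1 the change from R day1 differed for 7 of the 8 keratins, by the edgeR test of that difference. All 7 were lower in D day6, where 19.5% of all tested genes were called lower and 17.1% higher. The log2 fold changes, D day6 over D day1, were -1.55 for Krt5, -2.99 for Krt6a, -3.19 for Krt6b, -2.98 for Krt14, -4.12 for Krt16, -1.92 for Krt17 and -2.90 for Krt42. Of these, Krt6a, Krt6b and Krt42 were called higher in D day1 and lower in D day6 than in R day1.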

How the results depend on the processing

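The direction and call of each keratin were recomputed under 15 alternatives in 3 comparisons, and 357 values kept both. The remaining 3 all arose without D day1 replicate 2: Krt16 and Krt17 became called lower in D day1 against R day1, which raised the number called lower to 3, and Krt15 in D day6 against D day1 turned to 0.11 (-0.47 to 0.11 over the libraries left out in turn). Over the libraries left out in turn, the members called lower in D day1 numbered 1 to 3, where 9.73% to 26.2% of all tested genes were. With raw counts in place of counts per kilobase, the Krt15 share of the type I members in D day1 was 9.29%. Scaling by library totals moved the median log2 fold change of all tested genes in D day6 to -0.143 against R day1 and -0.107 against D day1, and the genes called higher and lower to 2572 and 4495, and 1816 and 3425, where TMM gave 3375 and 3637, and 2367 and 2710. Over the libraries left out in turn, all genes called higher and lower numbered 1233 to 3745 and 1364 to 3688 in D day1 against R day1 (2136 and 2106 with all), 2762 to 5336 and 3021 to 5298 in D day6 against R day1, and 1615 to 4208 and 1790 to 3999 in D day6 against D day1, each highest without D day1 replicate 2. With the 6 libraries of each comparison alone the counts were 1304 and 1451, 5232 and 5205, and 1544 and 1779 in the same order. No pairing by replicate number was seen: deviations of same-numbered libraries correlated at -0.163 to 0.143, over 0.1 in 1 of 9 pairs. With 3 libraries a group and D day1 replicate 2 standing apart, these values cannot exclude pairing. With a replicate block, the keratins called higher and lower numbered 4 and 1 in D day1 and 1 and 7 in D day6, both against R day1, and 0 and 7 in D day6 against D day1. The shares of all tested genes in that fit were 12.0% and 12.9%, 22.4% and 24.5%, and 14.4% and 16.0%, in the same order.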
